A study of Mus musculus with 12 samples.

Results

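NRF2 is the transcription factor that sets the oxidant defence of most cells, and glutathione is the small thiol at the centre of that defence. The 10 genes described here cover both: the factor itself (Nfe2l2), its inhibitor (Keap1), the cystine importer (Slc7a11), the enzymes that make and recycle glutathione (Gclc, Gclm, Gsr), and 4 further oxidant defence genes (Txnrd1, Srxn1, Nqo1, Hmox1). They were chosen by name, with earlier results of these data known. All 10 were found by Ensembl identifier among the 24255 genes present in both deposited tables, and all 10 passed the filter on low values in both lines. RNA sequencing had been done on 12 libraries from 2 mouse cell lines, in a study of diethyl phthalate (DEP), which is added to plastics and cosmetics. Confluent cells of either line received 50 µM DEP for 48 h (3 libraries) or served as DMSO controls (3 libraries). The lines were AML12, an established hepatocyte line, kept in DMEM/F12, and iWAT, labelled as mouse adipocytes, kept in DMEM. Line and medium therefore cannot be told apart. Nothing in the labels says whether replicates were separate cultures, so p-values measure the spread between these libraries, which may be technical. RNA levels do not show how much NRF2 protein is present or active.

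KEAP1 binds NRF2 and hands it to a ubiquitin ligase built on CUL3, which keeps the protein short-lived. Oxidants and electrophiles modify cysteines of KEAP1, NRF2 escapes, pairs with small MAF proteins and switches on genes that carry an antioxidant response element, while BACH1 competes for the same sites. Glutathione is made from cysteine, which enters many cultured cells as cystine through the importer encoded by Slc7a11. Glutamate-cysteine ligase, formed by the catalytic subunit GCLC and the modifier subunit GCLM, takes the rate-limiting step, and glutathione reductase (Gsr) returns the oxidised form to use. In liver this supply also serves the conjugation of drugs and other foreign compounds.

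Promoter sequence was at hand for 7 of the 10 genes (Nfe2l2, Keap1, Slc7a11, Gclm, Txnrd1, Srxn1 and Nqo1), in RefSeq windows of 300 bases on the GRCm38.p6 build, running from 250 bases before a transcription start to 50 after it. The windows were searched on both strands for the core of the antioxidant response element, TGACNNNGC, and for the amino acid response element, TGATGNAA, to which the stress factor ATF4 and its partners bind. These stretches are shown because they hold every match found before a start among these genes, with capitals marking the matches.
Slc7a11, chr3:50443614-50443719, minus strand: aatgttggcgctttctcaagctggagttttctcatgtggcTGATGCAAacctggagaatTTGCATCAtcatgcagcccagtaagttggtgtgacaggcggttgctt
Gclm, chr3:122245383-122245471, plus strand: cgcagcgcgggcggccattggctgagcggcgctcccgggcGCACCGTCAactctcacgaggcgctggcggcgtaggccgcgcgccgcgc
Txnrd1, chr10:82859074-82859162, plus strand: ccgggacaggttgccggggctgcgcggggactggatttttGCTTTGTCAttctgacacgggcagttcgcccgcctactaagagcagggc
Nfe2l2, chr2:75704855-75704913, minus strand: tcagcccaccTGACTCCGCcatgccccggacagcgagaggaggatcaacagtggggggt
The Slc7a11 window held 2 matches to the amino acid response element, in opposite orientations, beginning 66 and 47 bases before the start. Of all 32851 windows, 3.97% held at least 1 such match and 23 held at least 2. The antioxidant core was found in 4 genes: in Gclm from 134 bases before the start, at the middle of the 3 annotated starts of Txnrd1 from 92 bases before it, in Nfe2l2 from 240 bases before it, and in Srxn1 past its start. The core was present in 12.4% of all windows, and the 2 motifs did not overlap in any of these genes. The 7 genes had 9 windows, 3 of them of Txnrd1, so a count of genes is not a share of windows. Sequence outside the windows was not searched. A match is a run of letters and does not show binding.

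**Figure D1:**
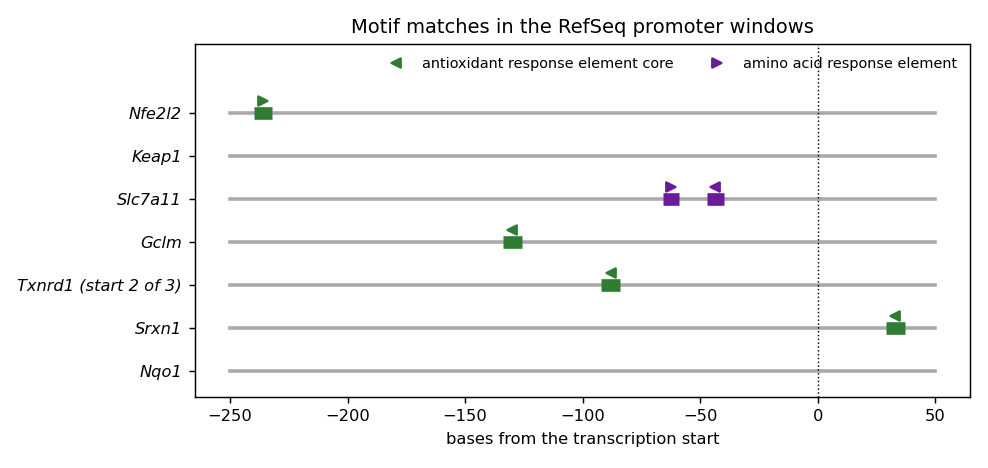
Matches to the antioxidant response element core (green) and the amino acid response element (purple) in the promoter windows of 7 genes, by distance in bases from the transcription start, with arrowheads for orientation. Of these windows, only that of Slc7a11 holds matches to the amino acid response element, 2 within the last 66 bases before its start. Windows of 4 genes hold a match to the antioxidant core. Over all windows, 12.4% hold the antioxidant core and 3.97% the amino acid response element. A match does not show binding.

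Before the results, the libraries in brief. AML12 controls held 42845105 to 46232482 reads and their DEP libraries more, 49249612 to 52915505. iWAT controls held 50035049 to 54585090 reads and their DEP libraries fewer, 47735539 to 49059544, so depth moved with treatment in opposite directions. The least covered value of the 10 genes, Nqo1 in AML12, still rested on 248 reads. AML12 libraries carried 7 of 10 hepatocyte markers and 4 of 5 markers of simple epithelium above the filter. The iWAT libraries carried 4 of 9 markers of mature fat cells and 5 of 8 of stroma and preadipocytes, and the defining fat cell genes Adipoq and Plin1 were near 0 there (0.0184 and 0.00285 FPKM in controls), so the data do not show mature adipocytes. Summed hepatocyte markers ranged from 520.1 to 530.2 FPKM in AML12 controls and from 585 to 598 FPKM with DEP, although Apoa1 of that list fell from 3.26 to 2.21 FPKM. The simple epithelial sum ranged from 3786 to 3815 FPKM and from 4276 to 4304 FPKM in the same groups. The stromal list in AML12, with 1 of 8 genes above the filter (Ly6a), ranged from 18.8 to 20.1 FPKM in controls and from 13.2 to 14.2 FPKM with DEP. The summed leukocyte list, with 1 of 7 genes above the filter, ranged from 10.6 to 12.03 FPKM in AML12 controls and from 4.31 to 4.64 FPKM with DEP, nearly all of it Cd68, with Ptprc and Adgre1 near 0. In iWAT that sum, again with Cd68 alone above the filter, ranged from 10.7 to 11.9 FPKM in controls and from 13.3 to 13.8 FPKM with DEP. The iWAT stromal sum ranged from 283 to 292 FPKM in controls and from 206 to 215 FPKM with DEP, with Dpp4 and Cd34 near 0. The summed mature fat cell markers in iWAT ranged from 20.5 to 21.2 FPKM in controls and from 17.3 to 18.5 FPKM with DEP. The part of these shifts in the results below was not tested, and fewer cells of a type cannot be told apart from less RNA per cell.

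FPKM, reads scaled by gene length and by library depth, allows an approximate comparison of the levels of different genes. The 10 genes stood in a different order in the control cells of each line. In AML12 controls Gclc was the most abundant of the 10 at 202 ± 0.478 FPKM (SD, n = 3), followed by Gsr at 174 ± 1.32 FPKM. Txnrd1 came next at 80.9 FPKM, then Srxn1 (58.4) and Gclm (57.6), whose values overlapped, Nfe2l2 (56.3), Hmox1 (41.5), Slc7a11 (20.01), Keap1 (10.6) and Nqo1 (5.36 FPKM). The values of all other neighbours in that order did not overlap. Overlap reflects only the spread between libraries, not errors in comparing genes. In iWAT controls the order was led by Hmox1, the haem oxygenase that opens the haem ring, at 205.4 ± 3.45 FPKM. Txnrd1 (85.7), Nfe2l2 (45.2) and Srxn1 (39.3) followed, then Gsr (37.4) and Gclc (37.2), which overlapped, Nqo1 (18.7), Slc7a11 (14.3), and Keap1 (11.99) and Gclm (11.2 FPKM), which overlapped too.

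Set side by side, control AML12 cells had 5.45 times the Gclc level of control iWAT cells, 5.14 times the Gclm level and 4.65 times the Gsr level. The reverse held for Hmox1, at 4.95 times the AML12 level in iWAT, and for Nqo1, the quinone reductase, at 3.48 times. For Nfe2l2 and Keap1 the AML12 to iWAT ratios were 1.24 and 0.885, and for Slc7a11 the ratio was 1.40. The lines stand in separate tables and in different media, so these ratios carry no test.

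**Figure D2:**
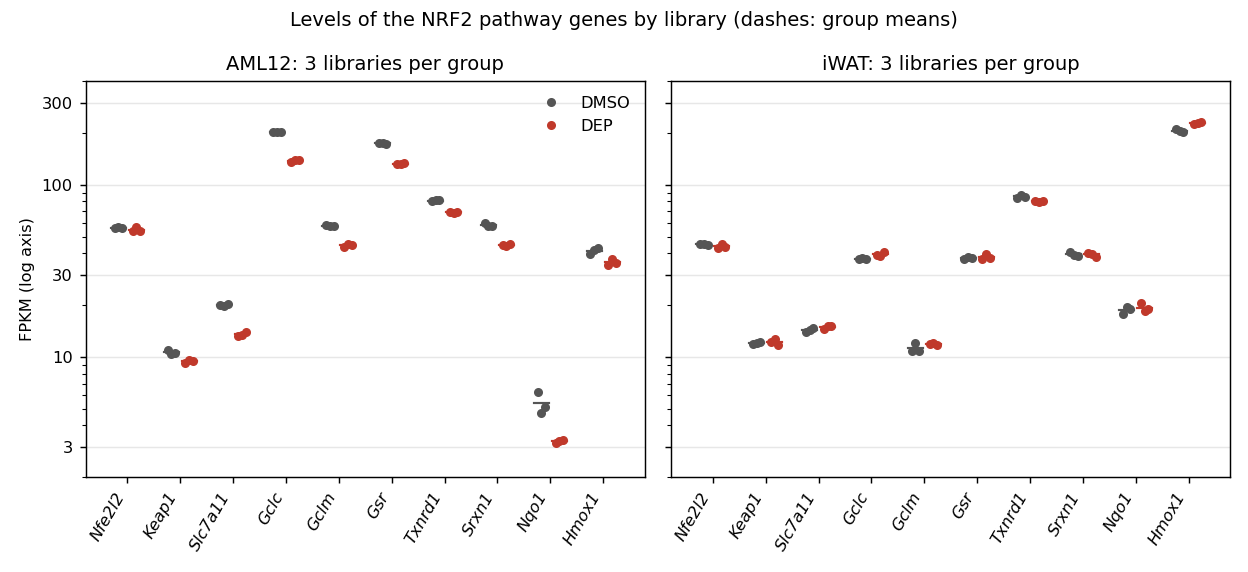
FPKM on a log axis for the 10 genes in every library, DMSO in grey and DEP in red, with group means as dashes, AML12 left and iWAT right. In AML12 the DEP points lie below the DMSO points for every gene but Nfe2l2, while in iWAT most groups overlap and Hmox1 stands highest, at 203 to 232 FPKM in the 6 libraries.

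In AML12 cells DEP was accompanied by lower expression of 9 of the 10 genes. Nqo1 fell by 39.6%, Slc7a11 fell by 32.1% and Gclc fell by 31.9%. Among the other 6 the change in mean level ran from -23.8% (Gsr) to -11.2% (Keap1), and the transcript of NRF2 itself did not pass the test. By limma on log2(FPKM + 1), 0 of the 10 genes rose and 9 fell at an adjusted p below 0.05, where 15.3% of all 12929 tested AML12 genes fell and 23.9% rose (39.2% called in all). Of all genes called in AML12, 60.9% were higher, and 48.1% were when each library was centred on its own median. The median log2 fold change of the 10 was -0.37, against 0.03 over all tested genes. Because the 10 were chosen with earlier results known, these contrasts describe the set and are no test of it. DEP and DMSO values did not overlap in those 9 genes, as in 52% of all tested genes.

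The regulators moved least. Nfe2l2 stood at 56.3, 56.6 and 56.0 FPKM in the DMSO libraries and at 54.2, 56.5 and 54.0 FPKM in the DEP libraries. The groups overlapped, since DEP replicate 2 lay at the control level, and the log2 fold change was -0.04 (95% interval -0.09 to 0.02, adjusted p = 0.264). With each library centred on its own median the value was -0.07 and passed (adjusted p = 0.0475). Keap1, the inhibitor, stood at 10.9, 10.4 and 10.5 FPKM without DEP and at 9.19, 9.61 and 9.46 FPKM with it. Every DEP library was below every control, and Keap1 fell by 0.16 on the log2 scale (SE 0.03, limma adjusted p = 0.00856).

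The transcripts of the cystine importer and of 3 glutathione enzymes all fell. Slc7a11 stood at 19.9, 19.9 and 20.3 FPKM in controls and at 13.3, 13.5 and 14.0 FPKM with DEP. The groups lay far apart beside their spread, with a log2 fold change of -0.53 ± 0.03 (SE, adjusted p = 4.06e-05), and 1.56% of all tested genes had as low a value or lower. Gclc, the catalytic subunit, stood at 202, 202 and 203 FPKM without DEP and at 136, 139.6 and 138 FPKM with it (means 202 and 138), a log2 fold change of -0.55 ± 0.02 (adjusted p = 8.69e-06). Its DEP libraries all lay far below its 3 controls, which were close to each other. Gclm, the modifier subunit, went from 58.0, 57.4 and 57.5 FPKM to 43.7, 45.2 and 44.9 FPKM, again without overlap (-0.36 ± 0.02, adjusted p = 5.21e-05). Gsr, which regenerates glutathione, went from 174, 175 and 173 FPKM to 133, 132 and 133 FPKM (-0.39 ± 0.02, adjusted p = 1.85e-05). Gsr had the tightest DEP group of the 10, with a coefficient of variation of 0.313%.

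The other 4 transcripts fell by unequal amounts. Srxn1, sulfiredoxin, which repairs overoxidised peroxiredoxins, stood at 59.6, 57.8 and 57.8 FPKM in controls and at 44.9, 44.0 and 45.1 FPKM with DEP (-0.38 ± 0.02, limma adjusted p = 5.56e-05). Txnrd1, the cytosolic thioredoxin reductase, stood at 80.2, 81.2 and 81.4 FPKM and at 69.5, 68.9 and 69.1 FPKM, a smaller fall of 0.22 on the log2 scale (adjusted p = 0.000170). Both kept their groups well apart. Nqo1 stood at 6.27, 4.71 and 5.11 FPKM in controls and at 3.16, 3.24 and 3.31 FPKM with DEP, with a mean of 374 reads per control library and 255 per DEP library. Control replicate 1 was high and the control spread was the widest of the 10 genes, at 15.1% of the mean, but no values overlapped (-0.58 ± 0.09, adjusted p = 0.00239). With single libraries left out the Nqo1 value ran from -0.65 to -0.48. Hmox1 stood at 39.7, 42.0 and 42.7 FPKM in controls and at 34.4, 37.1 and 35.2 FPKM with DEP (-0.22 ± 0.04, adjusted p = 0.00473).

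**Figure D3:**
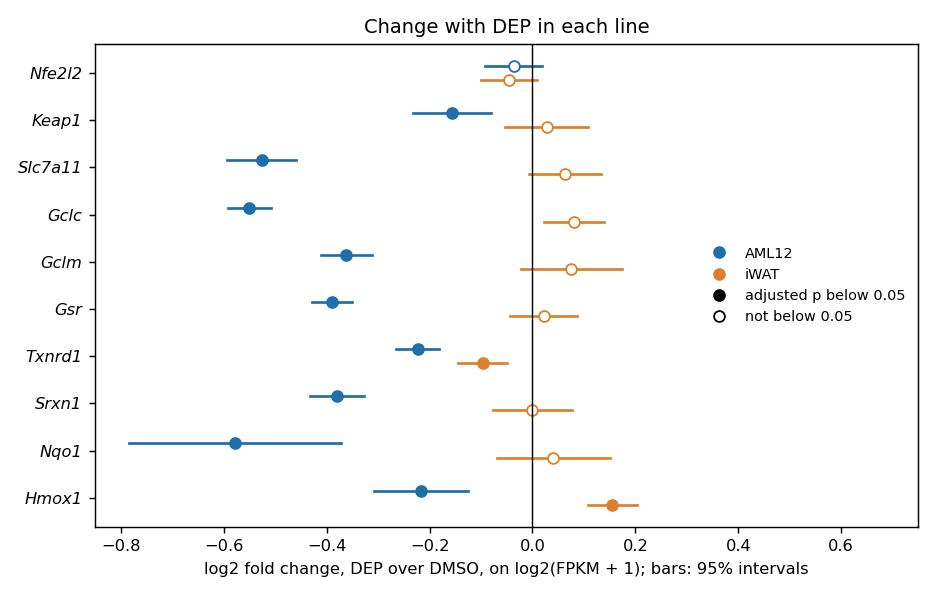
Log2 fold changes of the 10 genes, DEP over DMSO on log2(FPKM + 1), with 95% intervals, AML12 in blue and iWAT in orange, filled where the adjusted p was below 0.05. The AML12 values run from -0.58 (Nqo1) to -0.04 (Nfe2l2), and the iWAT values from -0.10 (Txnrd1) to 0.16 (Hmox1).

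In iWAT cells the same exposure was accompanied by little movement of these genes. Hmox1 rose, Txnrd1 fell slightly, and the other 8 did not pass the test. That made 1 gene up and 1 down, where 4.03% of all 13482 tested iWAT genes rose and 4.52% fell (8.54% called in all), and the median log2 fold change of the 10 was 0.03 against 0.01 over all tested genes. Groups did not overlap in 3 of the 10 genes, as in 31.1% of all tested genes.

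Hmox1 stood at 209, 204 and 203 FPKM in iWAT controls and at 225, 229 and 232 FPKM with DEP. Every DEP library lay above every control, and the log2 fold change was 0.16 ± 0.02 (adjusted p = 0.00628), a rise of 11.4%. Txnrd1 stood at 84.1, 87.6 and 85.4 FPKM without DEP and at 80.6, 79.4 and 80.1 FPKM with it (-0.10 ± 0.02, adjusted p = 0.0341). That call was lost without most single libraries: without DMSO replicate 2 or 3 or without DEP replicate 1, 2 or 3 its adjusted p was 0.0684 to 0.106, and with no filter on low values it was 0.0732.

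Gclc was the third iWAT gene without overlap, at 37.0, 37.6 and 36.9 FPKM in controls and 38.8, 38.6 and 40.6 FPKM with DEP, but it missed the threshold (0.08, 95% interval 0.02 to 0.14, adjusted p = 0.0952). Slc7a11 stood at 13.9, 14.3 and 14.6 FPKM and at 14.6, 15.1 and 15.2 FPKM, touching groups with an interval of -0.01 to 0.13 (adjusted p = 0.245). Nfe2l2 stood at 45.4, 45.5 and 44.7 FPKM and at 43.1, 45.0 and 43.3 FPKM, also overlapping (-0.05, interval -0.10 to 0.01, adjusted p = 0.270). For Gclm, Gsr, Nqo1 and Keap1 the log2 values lay between 0.02 and 0.08, and Srxn1 averaged 39.3 FPKM in both groups, all with overlapping groups and adjusted p-values of 0.317 to 0.995. The widest of their intervals, that of Nqo1, ran from -0.07 to 0.15.

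The difference between the responses of the lines was tested as an interaction in a limma fit of all 12 libraries, and it passed for 9 of the 10 genes, all lower in AML12, where 11.7% of 14651 tested genes were and 29.2% were called in either direction. Over all genes called there, 60.1% were higher in AML12, and 47.8% with library medians centred. For Gclc the AML12 response was lower than the iWAT response, with a log2 difference of -0.63 ± 0.03 (adjusted p = 2.22e-07). Nqo1 differed by -0.62 ± 0.11 (adjusted p = 0.00144) and Slc7a11 by -0.59 ± 0.04 (adjusted p = 2.27e-06). The order of these 3 depends on the pseudocount, since with 0.1 in place of 1 Nqo1 came to -0.74, Gclc to -0.64 and Slc7a11 to -0.62. Hmox1 fell in the hepatocyte line and rose in the other, a difference of -0.37 ± 0.05 (adjusted p = 0.000157). Txnrd1 fell in both, with a difference of -0.13 ± 0.02 (adjusted p = 0.00282). Nfe2l2 was the exception at 0.01, with an interval of -0.06 to 0.08 (adjusted p = 0.853). As levels, Slc7a11 ended lower in AML12 than in iWAT with DEP (13.6 against 15.0 FPKM), having started higher (20.01 against 14.3 FPKM). Levels of the lines come from separate tables, so this crossing carries no test.

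Ratios within a library do not depend on its scaling, and 3 of them followed the balance of partner genes. The Gclc to Gclm ratio in AML12 was 3.48, 3.52 and 3.53 in controls and 3.11, 3.09 and 3.08 with DEP, a log2 difference of -0.18 without overlap. With 3 libraries against 3 the exact two-sided permutation test cannot go below p = 0.10, which is what it gave here. Over the 6 ratio tests the Benjamini-Hochberg adjusted value of the smallest p was 0.20. In iWAT the ratio averaged 3.32 in both groups, with overlapping values (exact permutation p = 1.0). The Keap1 to Nfe2l2 ratio in AML12 was 0.195, 0.184 and 0.187 in controls and 0.1696, 0.1702 and 0.175 with DEP, lower by more than the spread (log2 difference -0.13, exact permutation p = 0.10). In iWAT it averaged 0.265 and 0.2795, with overlap (exact permutation p = 0.20). SLC7A11 protein works bound to the heavy chain encoded by Slc3a2, and their transcript ratio in AML12 went from 0.159, 0.157 and 0.161 to 0.142, 0.141 and 0.151 (log2 difference -0.14, exact permutation p = 0.10). In iWAT that ratio averaged 0.0919 and 0.0906 and overlapped (exact permutation p = 0.70).

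**Figure D4:**
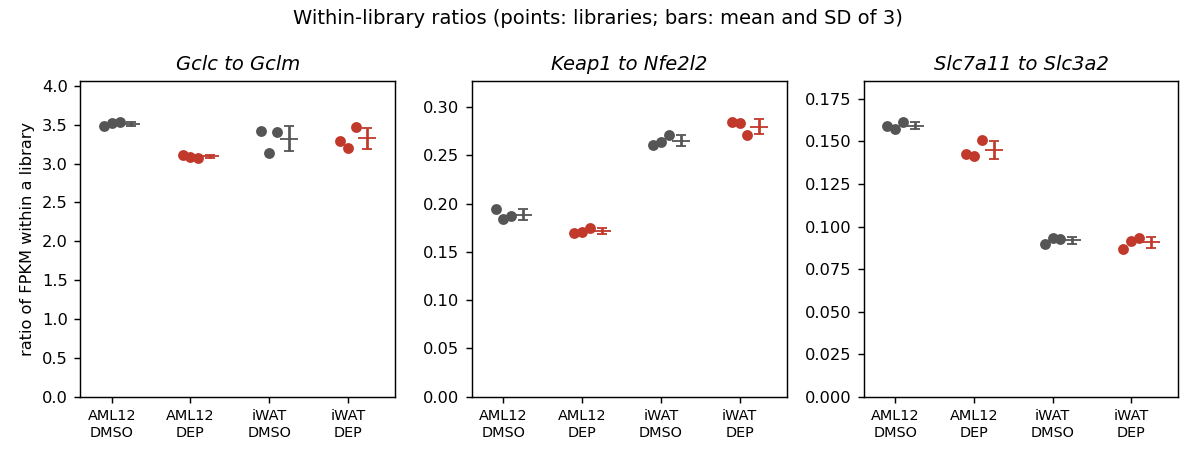
Ratios of FPKM within each library for 3 gene pairs, DMSO in grey and DEP in red, with mean and SD of 3 libraries beside the points and axes from 0. All 3 ratios are lower with DEP in AML12 without overlap, and the iWAT groups overlap in all 3.

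Genes that control NRF2 changed in both directions in AML12, and in iWAT the 5 that passed the test rose. Of 16 listed, 14 were tested in each line, with 3 up and 6 down in AML12 (median -0.06) and 5 up and 0 down in iWAT (median 0.03). For this and the following lists, the shares over all tested genes were 23.9% up and 15.3% down in AML12. In iWAT they were 4.03% up and 4.52% down. List counts near these shares are not a result about the list. In AML12 Sqstm1, the autophagy receptor that sequesters KEAP1 and is itself an NRF2 target, fell from 197 ± 0.892 to 143 ± 1.04 FPKM (adjusted p = 1.17e-05). Nfe2l1, the related factor NRF1, fell from 57.4 to 46.5 FPKM, the small MAF gene Maff from 30.8 to 26.0 FPKM, Mafg from 23.4 to 22.1 FPKM and the repressor Bach1 from 10.6 to 9.48 FPKM, while Dpp3, a KEAP1-binding protein, rose from 23.6 to 27.1 FPKM. Cul3, the ligase scaffold, stood at 29.4 and 29.7 FPKM (adjusted p = 0.755). In iWAT Sqstm1 rose from 397 to 425 FPKM, Maff from 25.8 to 30.5, Mafk from 19.7 to 23.2 and Mafg from 40.9 to 45.2 FPKM. The opposite movements of Sqstm1 and Maff differed between the lines by -0.55 and -0.47 on the log2 scale (adjusted p = 7.96e-08 and 0.000119). Nfe2l1, Bach1 and Cul3 did not pass in iWAT, at 68.8 and 68.4, 11.0 and 10.7, and 31.1 and 32.6 FPKM.

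The other genes of the glutathione cycle went both ways in AML12, with 3 of 13 tested up and 6 down (median -0.11), and in iWAT 3 of 14 rose and 0 fell (median 0.03). In AML12 Slc3a2 fell from 126 ± 0.633 to 93.8 ± 1.28 FPKM, Slc1a4, a neutral amino acid carrier, from 38.9 to 26.6 FPKM, and Cth, which makes cysteine from cystathionine, from 42.3 to 32.9 FPKM. Anpep, a membrane aminopeptidase that can act on the breakdown products of glutathione, fell from 2.95 to 0.886 FPKM. The 3 that rose, named here after their values were seen, were Cbs, which makes the cystathionine that Cth uses, from 0.758 to 1.33 FPKM, and the glutaredoxin genes Glrx, from 10.6 to 12.6 FPKM, and Glrx3, from 32.6 to 36.2 FPKM. Gss, which adds the final glycine, fell from 16.5 to 14.2 FPKM (-0.20, adjusted p = 0.00275) and stood at 2.47 and 2.54 FPKM in iWAT (adjusted p = 0.817). In iWAT Slc1a4 rose from 33.7 to 38.5 FPKM, Slc3a2 from 155 to 165 FPKM and Chac1, a glutathione-degrading enzyme, from 97.6 to 106 FPKM. The Slc3a2 response differed between the lines by -0.51 (adjusted p = 2.83e-07).

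Of 13 tested genes for removal of peroxide and superoxide, 3 rose and 2 fell in AML12 (median 0.01), shares near those of all tested genes (23.9% and 15.3%). Catalase (Cat) fell from 133 to 88.2 FPKM and Gpx4, which protects membrane lipids, from 309 to 253 FPKM, while Gpx8 and Sod3 rose at low level, from 1.59 to 2.44 and from 1.36 to 2.14 FPKM. Prdx2, a peroxiredoxin gene named here after its value was seen, rose too (log2 fold change 0.15, limma adjusted p = 0.00632). In iWAT 1 of 15 passed, mitochondrial Prdx3, which fell from 56.9 to 50.0 FPKM. In the thioredoxin list 4 of 10 tested genes rose and 0 fell in AML12 (median 0.06). Txn1, the substrate of the reductase made from Txnrd1, rose from 168 ± 3.26 to 199.7 ± 6.58 FPKM (0.25 ± 0.03, adjusted p = 0.000851) while Txnrd1 fell. Txnip, Txnl1 and Txn2 rose from 0.588 to 0.968, from 28.2 to 30.4 and from 42.5 to 45.8 FPKM. In iWAT 1 of 11 passed, Txnip, which binds thioredoxin and rose from 27.5 to 33.1 FPKM, and Txn1 stood at 192 and 186 FPKM (adjusted p = 0.383).

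Genes that supply NADPH, which both reductases consume, had 2 of 10 up and 4 down in AML12 (median -0.05). G6pdx, the entry enzyme of the pentose phosphate pathway, rose from 10.7 to 12.9 FPKM and Mthfd1, of folate metabolism, from 23.5 to 27.8 FPKM, while Tkt (transketolase) fell from 113 to 99.6 and Idh1 from 121 to 114 FPKM. In iWAT 1 of 10 rose, the NAD kinase gene Nadk, from 44.8 to 48.2 FPKM, and 1 fell, Idh1, from 10.2 to 7.84 FPKM. Haem and iron genes had 1 of 7 up and 4 down in AML12 (median -0.22). The ferritin chains fell most in level, Ftl1 from 2028 ± 10.5 to 1442 ± 8.93 FPKM and Fth1 from 1323 ± 17.0 to 899 ± 23.3 FPKM. Both have near-identical copies in the genome whose reads FPKM cannot part. The biliverdin reductases, which act after haem oxygenase, went apart, with Blvrb down from 22.3 to 16.1 and Blvra up from 12.9 to 16.1 FPKM. In iWAT 1 of 6 fell, Fth1, from 442 to 408 FPKM.

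Further known NRF2 targets, chosen like all these lists with earlier results of these data known, fell in 18 of 22 cases in AML12 and rose in 1 (median -0.48), while in iWAT 1 of 18 rose and 1 fell (median 0.02). In AML12 the smallest p-values were those of Aldh3a1, an aldehyde dehydrogenase (-1.21), Abcc2, a canalicular conjugate pump (-0.90), Gsta3, a glutathione transferase with close paralogs (-0.84), and Ephx1, an epoxide hydrolase (-0.76). In iWAT Mgst1, a microsomal glutathione transferase, fell from 24.2 to 18.0 FPKM and Ephx1 rose from 33.1 to 36.3 FPKM. The medians of the lines cover partly different genes. Aldh3a1, Abcc2, Abcc3, Gsta1, Gsta2 and Gsta3 lay below the filter in iWAT and were not tested there. Cbr3 and Pir were tested in iWAT alone. The gene that rose in AML12, named here after its value was seen, was Nqo2 (0.11, limma adjusted p = 0.0198).

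ATF4 also drives Slc7a11. The Atf4 transcript did not pass the test in either line, at 162 and 156 FPKM in AML12 (adjusted p = 0.128) and 351 and 336 FPKM in iWAT (adjusted p = 0.105). Its DEP values all lay below its control values in both lines. Groups did not overlap in 52% of all tested AML12 genes and 31.1% of iWAT genes. RNA levels do not show how much ATF4 protein is present or active. Of 10 genes on the list of ATF4 and its targets, which shares Chac1 and Sesn2 with the lists above, 2 rose and 6 fell in AML12 (median -0.14), and 5 rose and 0 fell in iWAT (median 0.10). Ddit3, the gene of the stress-induced factor CHOP, was reduced from 15.3 ± 0.588 to 5.06 ± 0.244 FPKM in AML12, the pseudokinase Trib3 from 49.3 to 28.4 FPKM and Asns (asparagine synthetase) from 132 to 118 FPKM, while Phgdh, of serine synthesis, rose from 262 to 309.7 FPKM. In iWAT Atf3 rose from 17.0 to 21.8, Sesn2 from 39.3 to 43.7, Trib3 from 107 to 118 and the amino acid carrier Slc7a5 from 112 to 119 FPKM, and Ddit3 stood at 84.9 and 93.2 FPKM (adjusted p = 0.0595). The responses of Trib3 and Ddit3 differed between the lines by -0.91 and -1.56 (adjusted p = 8.32e-08 and 7.29e-08).

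**Figure D5:**
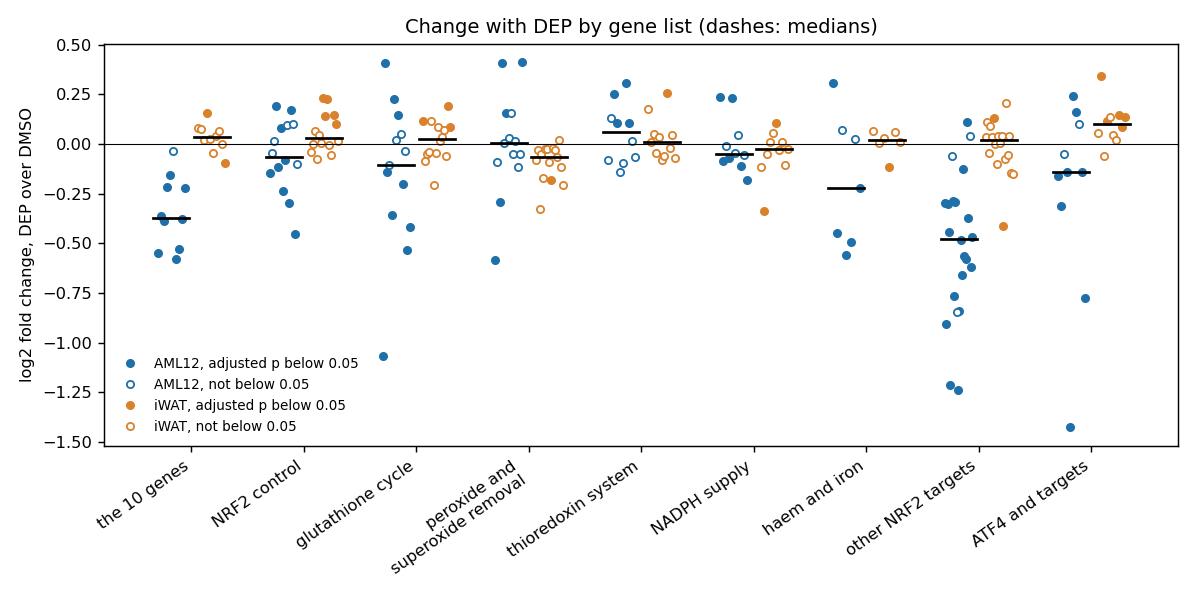
Log2 fold changes, DEP over DMSO, of every tested gene of the 10 and of 8 gene lists, AML12 in blue and iWAT in orange, filled where the adjusted p was below 0.05, with list medians as dashes. In AML12 the medians of the 10 genes (-0.37) and of the other NRF2 targets (-0.48) lie lowest, while the thioredoxin list (0.06) lies above 0. All iWAT medians lie between -0.07 and 0.10, and the tested genes of a list can differ between the lines.

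The listed genes most like the 10 in pattern were sought over the 12 libraries, by the correlation of log2(FPKM + 1), centred on each line's mean, with the mean profile of the 10. Ftl1 (Pearson r = 0.993), Ephx1 (r = 0.991) and the glutathione transferase gene Gstm1 (r = 0.989) came highest. The points share line, treatment and depth, so the values describe a pattern in which AML12 DEP libraries stand low and iWAT libraries hardly differ.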

How the data were processed

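Total RNA was extracted with a mirVana kit and made into stranded TruSeq libraries, per the labels' protocols. Trimmomatic and HISAT2 handled the reads on build GRCm39, per the submitters' processing notes. Versions, the counting tool and its use of strand are not given in the sources used here, so overlapping antisense genes cannot be parted. The authors deposited FPKM per gene in a table for each line. Gene symbols came from GENCODE M21 (95.1% of AML12 and 94.9% of iWAT identifiers). Genes reaching 0.5 FPKM in 3 or more libraries were tested on log2(FPKM + 1) with limma 3.58.1 in R 4.3.3 (trend), Benjamini-Hochberg adjusted over all tested genes and called below 0.05. Fold changes are on that scale, which understates low genes. The interaction used 12 libraries. Reads were recovered from FPKM steps and exon lengths. The code was checked on simulated data. The 10 genes and all lists were chosen with earlier results of these data known. List genes are named by up to 4 smallest p-values among those called per line, plus genes compared with the 10. Alternatives were another pseudocount (0.1), no filter, a filter of 2 FPKM, centred medians, a replicate block and each library left out.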

Additional observations from a re-analysis of the deposited data

Results flagged for a closer look

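The DEP response differed between the lines, by the interaction test of limma over 12 libraries, in 9 of the 10 genes. On the log2 scale, AML12 minus iWAT, the differences were -0.63 for Gclc, -0.62 for Nqo1, -0.59 for Slc7a11, -0.44 for Gclm, -0.41 for Gsr, -0.38 for Srxn1, -0.37 for Hmox1, -0.18 for Keap1 and -0.13 for Txnrd1. Line, medium and depth differ together between these groups, and their part in the differences cannot be told apart.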

How the results depend on the processing

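In AML12, 9 of the 10 genes fell under each alternative run, with Nfe2l2 added when library medians were centred, and leaving out single libraries gave 9 to 9 down and 0 to 0 up. All tested AML12 genes called then ranged from 2445 to 2717 up and from 1601 to 1866 down. The interaction kept 9 to 9 lower and 0 to 0 higher, with 2305 to 2449 and 1491 to 1589 over all genes. In iWAT the counts over all genes, 543 up and 609 down, were 293 and 371 with no filter, and 193 to 274 and 314 to 423 with single libraries left out. Hmox1 stayed called (1 to 1 up), while the gene called lower, Txnrd1, was lost with no filter (0) and in most omissions (0 to 1). Same-numbered libraries correlated at -0.056 to 0.029 in their deviations. No shared deviation was seen, but such values cannot tell whether same-numbered libraries shared a culture or day. Under the replicate block iWAT had 190 up, 313 down and 0 of the 10 down.

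Signs turned only in values that were not called. In iWAT, Keap1 (range -0.00032 to 0.056) and Gsr (-0.0051 to 0.041) turned without DEP replicate 2, Srxn1 (-0.018 to 0.026) without DMSO replicate 1 or DEP replicate 3 (0.023), and Nqo1 (-0.00098 to 0.069) without DEP replicate 1. The Nfe2l2 interaction turned with medians centred (-0.026), without AML12 DEP replicate 2 (-0.011) and without iWAT DEP replicate 1 (-0.0017). Log2 ratio differences with single libraries left out ranged in AML12 from -0.19 to -0.18 for Gclc to Gclm, -0.15 to -0.11 for Keap1 to Nfe2l2 and -0.17 to -0.12 for Slc7a11 to Slc3a2. In iWAT they ranged from -0.039 to 0.027, from 0.064 to 0.099 and from -0.040 to 0.0091, turning for Gclc to Gclm without DMSO replicate 2 (-0.039) or DEP replicate 3 (-0.032) and for Slc7a11 to Slc3a2 without DEP replicate 1 (0.0091). The causes were not tested. The fewest reads behind a value of the 10 genes were 248 (Nqo1 in AML12).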
